A study of Mus musculus with 4 samples.

Results

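The Kruppel-like factors (KLFs) of macrophages were examined as 9 genes, Klf2, Klf3, Klf4, Klf6, Klf7, Klf9, Klf10, Klf13 and Klf16, taken by symbol from the 17013 genes listed for the RNA sequencing experiment. Macrophages grown from the bone marrow of wild-type mice with M-CSF were seeded on porous inserts with artificial necrotic bone fluid (aNBF), a freeze-thaw extract of bone and marrow, and collected after 24 h. Below the inserts lay medium from freeze-thawed abdominal fat, either its middle layer as the fat control medium (Con) or its top layer as the high-fat-containing medium (Fat). Both groups therefore received aNBF and products of necrotic fat, and there was no group without them. There were 2 libraries per group, with totals between 33573852 and 40785872 recovered reads. The labels do not say whether the replicates came from separate animals or cultures, so p-values measure only the spread between these libraries.

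KLFs are transcription factors whose conserved C-terminal zinc fingers bind GC-rich and CACCC sequences, so that family members can compete for the same sites, also with the related Sp factors. Outside the fingers they differ: KLF3 recruits the corepressor CtBP, and KLF9, KLF10, KLF11, KLF13 and KLF16 can recruit SIN3 and histone deacetylases. In macrophages, KLF2 and KLF4 are known to restrain NF-κB-driven inflammatory genes and KLF4 to act with STAT6 in the response to IL-4, while KLF6 is known to favor inflammatory gene expression.

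Of the 9 KLF genes, 2 were higher and 1 was lower in Fat at a limma adjusted p-value under 0.05, and 6 were not called. Klf10 rose 1.51-fold and Klf7 1.56-fold, and Klf4 fell to 0.726 of its level in Con. Among all 12470 genes tested, 3.99% were called higher and 5.0% lower (9.0% in all). On the recovered reads, edgeR's quasi-likelihood test likewise called 2 members higher and 1 lower, where it called 3.93% and 5.20% of all genes (9.13% together). DESeq2 called 1 member in each direction, where it called 3.66% and 4.77% of all genes (8.43% together). Limma p-values left unadjusted passed 0.05 for the same 3 members, against 11.8% of all genes upward and 12.4% downward (24.1% together). Klf6, the most abundant member, was among the 6 that were not called. The largest change in the family belonged to a gene outside the 9, Klf11, which rose 2.35-fold.

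Promoter sequences are shown first for the KLF genes that moved and for Klf2, the only member whose promoter window held a MEF2 motif. They come from RefSeq, build GRCm38.p6, which held a promoter for 7 of the 9 genes (all but Klf10 and Klf16). Each run is the 250 bases before the annotated start, 5′ to 3′ on the strand of the gene, and capitals mark matches on either strand to the CACCC box (CCACCC), the GC box (GGGCGG) and the MEF2 motif.
Klf7, chr1:64121390-64121639, minus strand: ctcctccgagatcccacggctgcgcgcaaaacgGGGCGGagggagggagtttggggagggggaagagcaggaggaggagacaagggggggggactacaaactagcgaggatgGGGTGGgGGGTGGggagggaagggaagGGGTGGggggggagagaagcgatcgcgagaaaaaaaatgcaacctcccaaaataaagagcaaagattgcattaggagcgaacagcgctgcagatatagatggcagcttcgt
Klf11, chr12:24651121-24651370, plus strand: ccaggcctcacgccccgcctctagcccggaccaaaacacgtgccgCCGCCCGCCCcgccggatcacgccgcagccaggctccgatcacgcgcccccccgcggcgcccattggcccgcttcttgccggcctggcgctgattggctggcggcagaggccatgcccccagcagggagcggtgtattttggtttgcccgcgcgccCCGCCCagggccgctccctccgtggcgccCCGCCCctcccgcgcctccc
Klf4, chr4:55532476-55532725, minus strand: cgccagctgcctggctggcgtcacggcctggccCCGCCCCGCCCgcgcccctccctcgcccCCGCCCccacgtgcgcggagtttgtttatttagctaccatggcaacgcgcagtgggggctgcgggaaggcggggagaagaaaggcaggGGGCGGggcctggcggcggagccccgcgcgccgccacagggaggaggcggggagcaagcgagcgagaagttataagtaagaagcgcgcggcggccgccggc
Klf2, chr8:72318812-72319061, plus strand: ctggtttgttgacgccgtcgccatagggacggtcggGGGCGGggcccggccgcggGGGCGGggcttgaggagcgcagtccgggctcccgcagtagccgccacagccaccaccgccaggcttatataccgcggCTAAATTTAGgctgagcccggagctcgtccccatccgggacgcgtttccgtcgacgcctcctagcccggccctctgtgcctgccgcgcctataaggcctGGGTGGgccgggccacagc
The Klf7 window held 3 CACCC boxes, between 106 and 138 bases before the start, and 1 GC box. Klf4 and Klf11 held 3 GC boxes each and 0 CACCC boxes, with overlapping matches counted once. Klf2 held the MEF2 motif between 109 and 118 bases before its start, a match found in 2.92% of 32851 promoter windows of the same length. Among the 7 promoters, Klf2, Klf3, Klf7 and Klf13 held a CACCC box, which 28.1% of all windows did. A GC box was present in all of the 7 except Klf9, against 32.7% of all windows. Among the windows of the genes tested, the shares were 32.7% for the CACCC box, 57.1% for the GC box and 1.54% for the MEF2 motif. Such matches describe the letters of these windows and were not tied to the expression values.

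In expression scaled for library size and gene length (TPM), Klf6 stood at 244.2 and 229.0 in Con replicates 1 and 2 and at 236.7 and 217.2 in Fat replicates 1 and 2. It lay above at least 96.5% of all listed genes in every library and made up between 50.1% and 56.8% of the summed TPM of the 15 KLF genes listed. By the mean over the 4 libraries, the order below it was Klf13, Klf10, Klf9, Klf3, Klf16, Klf4, Klf11, Klf2, Klf7 and Klf8. The groups differed in this order. Among the 15 genes Klf11 ranked 10th in both Con libraries and 6th and 7th in Fat replicates 1 and 2. Klf4 ranked 7th in both Con libraries and 9th and 10th in Fat replicates 1 and 2. Over the 4 libraries the ranges of Klf13 (51.3 to 56.4 TPM) and Klf10 (33.8 to 54.5 TPM) overlapped, and in Fat replicate 2 Klf10 passed Klf13. Klf9 (26.0 to 31.3 TPM) and Klf3 (24.3 to 25.8 TPM) were close but did not overlap. From Klf4 down to Klf7 each gene overlapped the next, at means of 8.48 TPM for Klf4, 8.29 for Klf11, 7.95 for Klf2 and 7.03 for Klf7. Klf5, Klf1, Klf15 and Klf12, among them the erythroid factor Klf1, did not pass the filter of 0.5 CPM in 2 libraries and had at most 13 reads in any library. Klf14 and Klf17 were not among the genes listed.

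**Figure D1:**
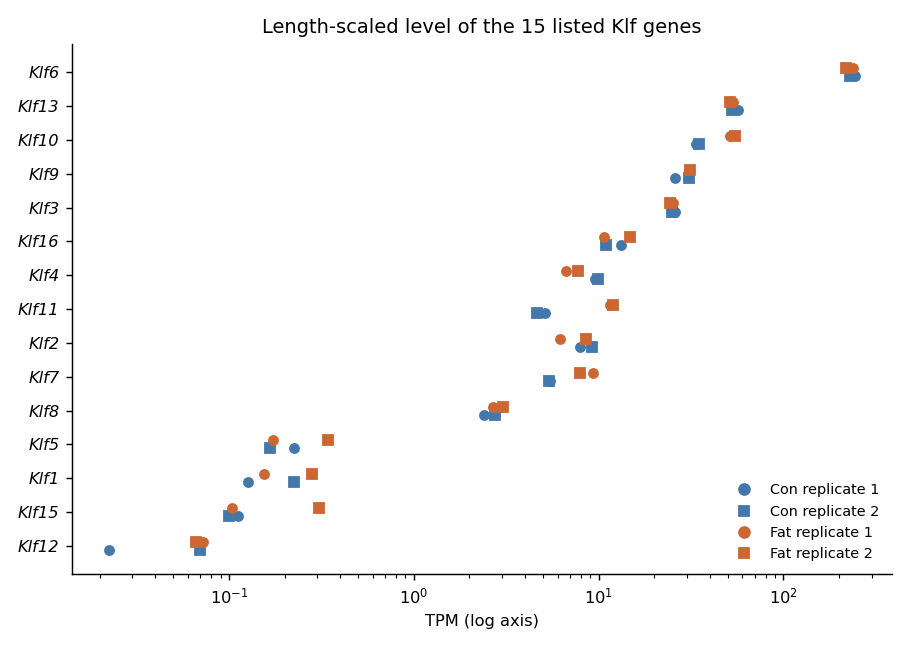
Level of each listed Klf gene in TPM on a log axis, with 1 point per library (blue Con, orange Fat, circles replicate 1, squares replicate 2). Klf6 sits alone at the top, between 217.2 and 244.2 TPM, while Klf10 and Klf11 show Fat points to the right of the Con points.

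TPM levels rest on the gene lengths the authors used. From the ratio of CPM (reads scaled by library size alone) to TPM, Klf7 had been given a length of 1336 bases, 0.174 of its longest GENCODE vM21 transcript, and Klf3 one of 2315 bases (0.443). For Klf2, Klf4, Klf6, Klf13 and Klf16 the ratio lay between 0.984 and 1.01, for Klf9 it was 0.728 and for Klf10 1.25. A TPM level set beside that of another gene carries these differences, including the ratios of Klf10 to Klf4 and to Klf11 given below, whereas a comparison of Fat with Con within 1 gene does not. Reads on the rest of the Klf7 transcript may therefore not be in its count, which was on average the lowest of the 9. Of the stretches of 75 bases in GENCODE Klf7 transcripts, 37.6% were shared with the antisense transcript Gm26649. Klf3 shared 2.88% with other genes and the other 7 members 0%. Whether the counting used strand is not given in the sources used here.

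Klf10, first described as a gene induced early by TGF-β, measured 58.9 and 62.2 CPM in the Con libraries against 88.7 and 93.9 CPM in the Fat libraries (replicates 1 and 2 in turn, here and below). The Fat libraries lay clearly above the Con libraries, 26.5 CPM apart at the nearest, with means of 60.5 ± 2.30 and 91.3 ± 3.66 CPM (SD, n = 2). On the log2(CPM + 0.1) scale the difference was 0.59 (standard error 0.06, 95% confidence interval 0.45 to 0.73, limma adjusted p = 0.00352). Fits without 1 of the libraries gave 0.55 to 0.63, with adjusted p-values of at most 0.00695, but the call was lost without limma's mean-variance trend (0.0831). In bulk RNA, a change in the number of cells making a transcript and a change in transcript per cell cannot be told apart.

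Klf11, the closest relative of Klf10 and likewise inducible by TGF-β, was at 9.29 and 8.64 CPM in Con and at 20.7 and 21.4 CPM in Fat. Its log2 difference of 1.22 (standard error 0.09, limma adjusted p = 0.00159) ranked 7th by p-value among genes higher in Fat. Klf11 started lower and rose by the larger factor. In TPM, Klf10 was 6.62 and 7.51 times Klf11 in the Con libraries and 4.48 and 4.57 times Klf11 in the Fat libraries.

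Klf7, a factor known from neurons and from adipose tissue, had 113 and 126 reads in Con and 211 and 195 reads in Fat. In CPM these were 3.33 and 3.36 against 5.65 and 4.76, so both Fat libraries lay above both Con libraries (means 3.35 ± 0.0190 and 5.2 ± 0.634 CPM, SD, n = 2). The log2 difference was 0.62 (standard error 0.14, 95% confidence interval 0.29 to 0.95, limma adjusted p = 0.0378). This call rested on every library: the adjusted p-value was 0.105 without Con replicate 1, 0.0748 without Con replicate 2, 0.15 without Fat replicate 1 and 0.0534 without Fat replicate 2. It was also lost without a filter (0.0697) and without the trend (0.0928), DESeq2 gave 0.0878, and under the stricter filter, a mean of 5 CPM, Klf7 was not tested.

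Klf4, a factor of monocyte differentiation, measured 13.3 and 14.0 CPM in Con against 9.16 and 10.7 CPM in Fat. The groups did not overlap, with means of 13.7 ± 0.530 and 9.92 ± 1.08 CPM (SD, n = 2) and a gap of 2.61 CPM. Its log2 difference was -0.46 (standard error 0.10, 95% confidence interval -0.71 to -0.22, limma adjusted p = 0.0368). The call was lost without Con replicate 1 (adjusted p = 0.0730), Con replicate 2 (0.0987) or Fat replicate 1 (0.119), and with TPM in place of CPM (0.0720), without a filter (0.0518) or without the trend (0.12). Within each library Klf10 was 3.53 times Klf4 in TPM in both Con replicates, and 7.72 and 7.01 times Klf4 in Fat replicates 1 and 2.

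**Figure D2:**
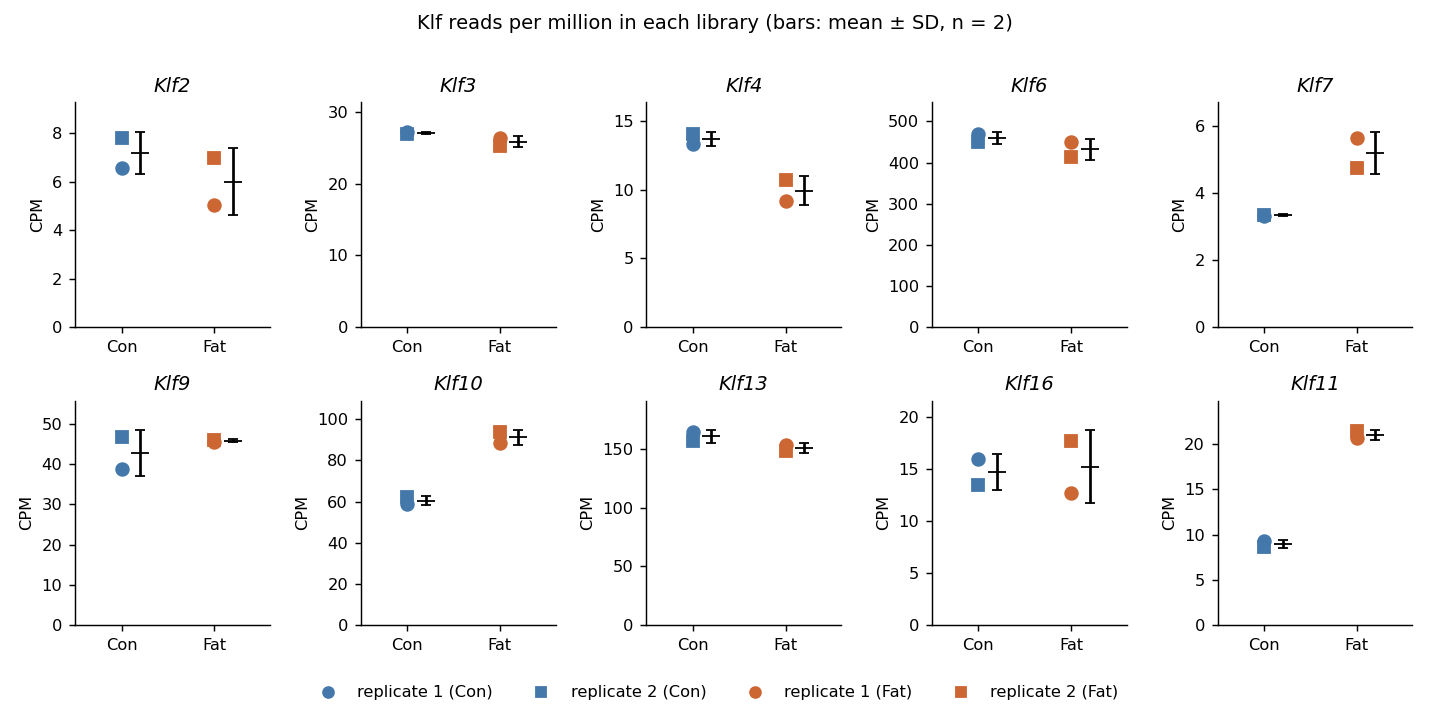
Library-scaled reads (CPM) of the 9 members and Klf11 in each library, with 1 panel per gene, axes starting at 0, circles for replicate 1, squares for replicate 2, and black bars for mean ± SD (n = 2). Klf7, Klf10 and Klf11 show both Fat points above both Con points, Klf4 shows both below, and Klf2, Klf6, Klf9 and Klf16 overlap.

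Klf2, which shares with Klf4 the restraint of inflammatory genes, was at 6.58 and 7.81 CPM in Con and at 5.04 and 6.98 CPM in Fat. The groups overlapped. Its log2 difference was -0.27 with a 95% confidence interval of -0.67 to 0.13 (limma adjusted p = 0.395), so a fall to 0.628 of the Con level and a rise to 1.1-fold are both within the interval. Leaving out single libraries moved the value between -0.50 and -0.04. Klf4 exceeded Klf2 by 1.21-fold and 1.07-fold in TPM in the Con libraries and stood at 1.09 and 0.914 of Klf2 in the Fat libraries.

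Klf6 was at 470.7 and 450.0 CPM in Con and at 450.4 and 413.7 CPM in Fat, the latter the lowest of the 4 libraries. Its groups overlapped by 0.377 CPM. The interval of its fold change ran from 0.844 to 1.04 (limma adjusted p = 0.443). Together the 9 genes summed to 422.3 and 407.9 TPM in Con and to 430.6 and 417.5 TPM in Fat. Without Klf6 the sums were 178.0 and 178.9 TPM in Con and 193.8 and 200.3 TPM in Fat, higher in both Fat libraries. Klf10 carried this difference, since the 7 members other than Klf6 and Klf10 summed to 144.3 and 144.0 TPM in Con and to 142.3 and 145.8 TPM in Fat.

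Among the KLFs that recruit SIN3, Klf13, known as an activator of Ccl5 in T cells, was at 165.0 and 157.0 CPM in Con and 153.8 and 148.2 CPM in Fat. Both Fat libraries lay below both Con libraries, but the log2 difference of -0.09 was not called (95% confidence interval -0.22 to 0.04, limma adjusted p = 0.367). Klf9, a gene induced by glucocorticoids, was at 38.8 and 46.9 CPM in Con and 45.5 and 46.1 CPM in Fat, so Con replicate 1 alone stood apart (log2 difference 0.10, adjusted p = 0.542). Klf16 was at 15.9 and 13.5 CPM in Con and 12.7 and 17.7 CPM in Fat, and its Fat replicates lay on either side of Con (log2 difference 0.04, adjusted p = 0.927). Klf3, the CtBP-recruiting repressor, was at 27.2 and 27.0 CPM in Con and 26.4 and 25.4 CPM in Fat. For Klf3 the interval of the fold change was 0.857 to 1.06, and the limma adjusted p-value was 0.594. Counting all 9 members, 2 had both Fat libraries above both Con libraries and 3 had both below. Such separation was found in 55.6% of all tested genes, 29.4% upward and 26.2% downward.

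**Figure D3:**
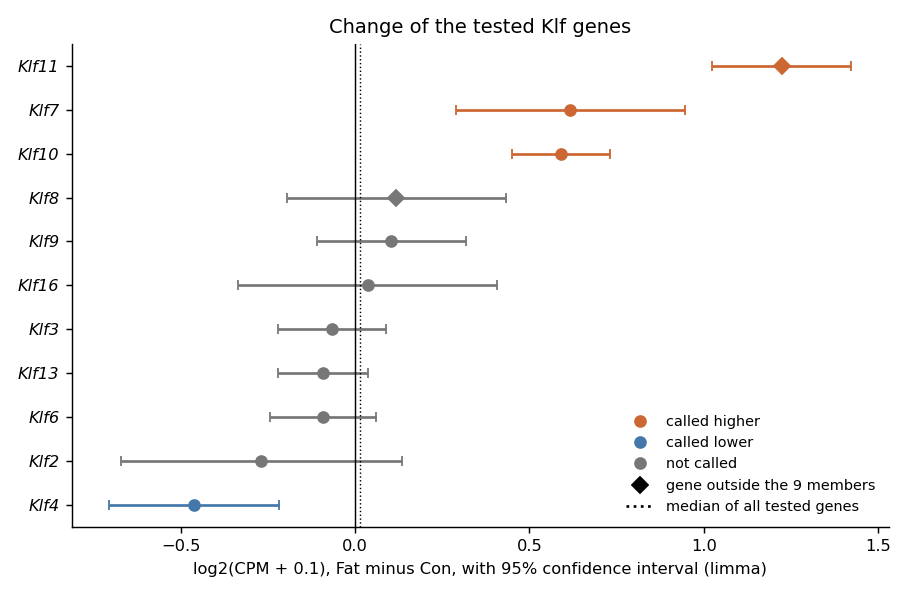
Difference Fat minus Con on the log2(CPM + 0.1) scale for the 11 Klf genes tested, with limma's 95% confidence interval, diamonds for genes outside the 9 members. Klf11, Klf7 and Klf10 lie to the right of 0, Klf4 lies to the left, and the intervals of the other 7 genes include 0.

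Over the 9 members the median log2 difference was -0.07, against 0.01 over all tested genes, and it was -0.04 with TPM and -0.08 after rescaling by median ratios. The related Sp factors, which bind GC boxes, did not pass the test in either direction. Sp1, Sp2, Sp3 and Sp4 passed the filter with log2 differences between 0.01 and 0.10, and 0 were called by limma, edgeR or DESeq2, nor before adjustment at a limma p-value of 0.05. Klf8, the other KLF that passed the filter, was at 4.89 and 5.73 CPM in Con and 5.41 and 6.12 CPM in Fat (limma adjusted p = 0.649).

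Of 16 KLF cofactor genes tested, among them the corepressors Ctbp1, Ctbp2, Sin3a and Sin3b, the acetyltransferases Ep300 and Crebbp, and Wwp1 and Fbxw7, which mark KLF2 for degradation, 0 were called by limma, edgeR or DESeq2. Before adjustment, 3 had a limma p-value within 0.05, all of them higher in Fat, where 11.8% of all genes did so upward. Upstream of Klf2 and Klf4 are the kinases of the ERK5 (Mapk7) cascade, the MEF2 factors and the class IIa histone deacetylases that bind MEF2. Over all genes 9.0% were called, and of these 11 genes 1 was called, Mef2d. It was at 38.7 and 41.4 CPM in Con and 51.7 and 56.7 CPM in Fat (log2 difference 0.43, limma adjusted p = 0.0137, and 0.0546 without Fat replicate 2). Mapk7 had a log2 difference of 0.15 (adjusted p = 0.275).

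In the TGF-β pathway, which induces Klf10 and Klf11, 1 of 13 genes was called higher and 0 lower. Before adjustment these counts were 2 and 3, and neither pair is far from the shares over all genes (3.99% and 5.0% called, 11.8% and 12.4% before adjustment). The gene called was Smad7, the feedback inhibitor of the pathway, at 9.76 and 10.6 CPM in Con and 14.8 and 14.4 CPM in Fat. Its log2 difference was 0.52 (limma adjusted p = 0.0163, and 0.0554 without Con replicate 1). Tgfb1 was at 91.3 and 101.4 CPM in Con and 103.7 and 121.1 CPM in Fat and was not called (adjusted p = 0.174). Among 8 glucocorticoid-induced genes tested, the class to which Klf9 belongs, 2 were called higher and 1 lower. Dusp1 rose by 0.50 on the log2 scale (adjusted p = 0.0174), as did Per1 by 0.39 (adjusted p = 0.0226, but 0.0689 without Con replicate 1 and 0.118 without Fat replicate 2). Tsc22d3, an anti-inflammatory leucine zipper gene, had a log2 difference of -0.31 (adjusted p = 0.0157, but 0.0502 without Con replicate 1 and 0.0632 without Fat replicate 2). Fkbp5 was at -0.22 (adjusted p = 0.163).

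**Figure D4:**
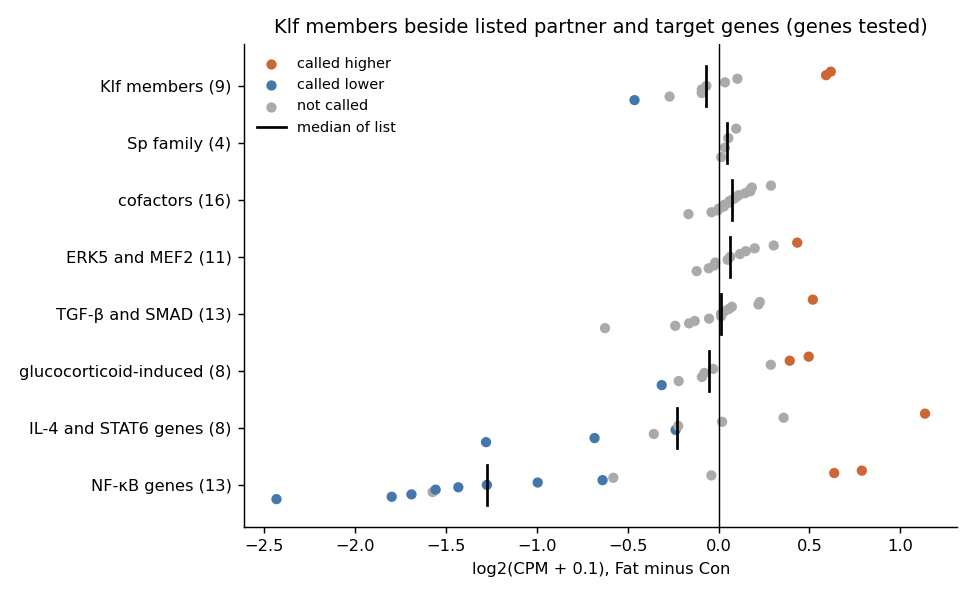
Difference Fat minus Con on the log2(CPM + 0.1) scale for the 9 members and for the tested genes of 7 lists of relatives, partners and targets, with 1 point per gene, a black bar for the median of each list and the number of genes in parentheses. The NF-κB genes spread to the left around a median of -1.27, whereas the Sp factors stay between 0.01 and 0.10.

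Of 8 tested genes of the IL-4 response, to which KLF4 and STAT6 are known to contribute, 1 was called higher and 3 lower. Over all genes, 3.99% were called higher and 5.0% lower. The higher one of the IL-4 genes was Arg1 (log2 difference 1.14, limma adjusted p = 0.0076). The lower ones were the IL-4 receptor gene Il4ra (-0.24, adjusted p = 0.0366), the nuclear receptor gene Pparg (-0.68, adjusted p = 0.00639) and the lectin gene Mgl2 (-1.28, adjusted p = 0.037). The calls of Il4ra and Mgl2 were lost with any single library left out, at log2 differences of -0.27 to -0.20 and -1.49 to -1.07. Both were also lost without the trend, Il4ra with TPM (limma adjusted p = 0.0852) and Mgl2 with DESeq2 (adjusted p = 0.0687). Mgl2 had 35 and 53 reads in Con and 14 and 21 reads in Fat. Mrc1, at 453.3 and 408.6 CPM in Con and 390.3 and 348.9 CPM in Fat, and Chil3 were not called by limma (adjusted p = 0.134 and 0.0709), while DESeq2 called Chil3 lower (adjusted p = 0.0332). Cd36, at 9199.4 and 10370 CPM in Con and 12638 and 12398 CPM in Fat, was likewise not called by limma (adjusted p = 0.163). DESeq2 called Cd36 higher (log2 difference 0.35, adjusted p = 0.000385). KLF2 and KLF4 are known to restrain NF-κB-driven genes as a class and KLF6 to favor them. Of 13 NF-κB genes tested, 8 were called lower and 2 higher in Fat, against 5.0% and 3.99% of all genes. The list was chosen with earlier results of these data known. The largest called falls in log2 were -2.43 for Cxcl10, -1.80 for Ccl5, -1.69 for Ccl4 and -1.56 for Ccl2 (limma adjusted p between 0.000541 and 0.0145), and Il1b and Tnf were at -1.43 and -0.64. Cd40, the costimulatory receptor, was at 9.11 and 8.80 CPM in Con and 3.51 and 3.78 CPM in Fat. F3, the gene of tissue factor, and Ptgs2 were called higher (log2 differences 0.79 and 0.64). The call of F3 was lost without Con replicate 1 (adjusted p = 0.0653) or Fat replicate 1 (0.0520), and that of Ptgs2 without Fat replicate 2 (0.0569).

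**Figure D5:**
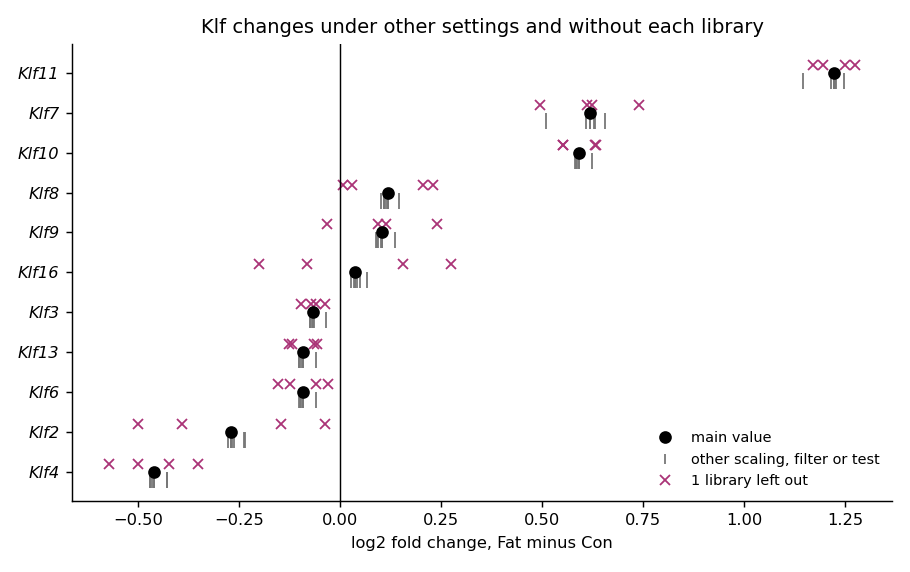
Log2 difference Fat minus Con of the 11 tested Klf genes as reported (black), under another scaling, filter or test (grey ticks) and with 1 library left out (crosses). Klf10 and Klf11 keep close to their values, while Klf16 and Klf9 cross 0 when single libraries are left out.

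The libraries carried macrophage transcripts at high levels, with Emr1 (F4/80) between 1000.4 and 1215.8 CPM and Csf1r between 1476.6 and 1851.6 CPM. In both Fat libraries 6 of 8 macrophage markers were lower than in both Con libraries, as were 26.2% of all tested genes. The 8 markers summed to between 33920 and 35962 CPM in Con and between 26918 and 28504 CPM in Fat. Most of this sum was Lyz2, at 28720 and 26819 CPM in Con and 21516 and 20347 CPM in Fat. Limma did not call Lyz2 (adjusted p = 0.209), while DESeq2 called it lower (log2 difference -0.42, adjusted p = 1.6e-06). Itgam and Cd68 overlapped between the groups. Fcgr1 was called lower (limma adjusted p = 0.0123), as was Mertk (0.0289, but 0.0846 without Con replicate 1, 0.145 without Fat replicate 2 and 0.0776 with TPM). All 9 adipocyte markers were listed. Leaving out Fabp4 and Lipe, which macrophages also express, the other 7 summed to 0.147 and 0.160 CPM in Con and to 4.58 and 2.66 CPM in Fat, and Adipoq, Lep and Pck1 were at 0 reads in Con. Of these 7 only Cidec passed the filter, with 0 and 2 reads in Con and 67 and 47 reads in Fat. Cidec was called higher (log2 difference 3.63, limma adjusted p = 0.0044), but not without the trend. With Fabp4 and Lipe the sums were 209.5 and 228.6 CPM in Con and 200.9 and 196.8 CPM in Fat. Stromal markers, Col1a1 and Col1a2 foremost, summed to 631.2 and 658.3 CPM in Con and to 528.9 and 675.5 CPM in Fat. Of these Dcn was called lower (limma adjusted p = 0.0358), at 91 and 103 reads in Con and 50 and 68 reads in Fat. The call of Dcn was lost with any library left out except Fat replicate 2 (log2 differences with 1 library left out -0.97 to -0.68). It was also lost with DESeq2 (adjusted p = 0.0883), without a filter and without the trend. Endothelial markers summed to 41.1 and 40.6 CPM in Con and to 33.9 and 36.7 CPM in Fat. Pecam1 and Kdr, also tested, went the other way, with both Fat libraries above both Con libraries, as in 29.4% of all tested genes. Neither was called (log2 differences 0.47 and 0.28, limma adjusted p = 0.237 and 0.62). Vwf made up most of the endothelial sum and was called lower (limma adjusted p = 0.0289). Its call was likewise lost with any library left out except Fat replicate 2 (log2 differences with 1 library left out -0.40 to -0.28). It was also lost with TPM (limma adjusted p = 0.117) and without the trend. Lymphocyte markers summed to 23.2 and 21.0 CPM in Con and to 17.0 and 18.4 CPM in Fat. Of these, 6 of 7 had both Fat libraries below both Con libraries, against 26.2% of all tested genes. By limma, edgeR or DESeq2 0 of the 7 were called (2 lower by limma before adjustment, where 12.4% of all genes were). Neutrophil markers summed to 332.6 and 289.7 CPM in Con and to 287.3 and 291.3 CPM in Fat. Among the 6 neutrophil markers tested, 4 had both Fat libraries below both Con libraries, against 26.2% of all tested genes. Again 0 were called by limma, edgeR or DESeq2 (2 lower by limma before adjustment, where 12.4% of all genes were). Erythroid markers summed to at most 0.0533 CPM. The part of these marker differences in the changes of Klf10, Klf11, Klf7 and Klf4 was not tested.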

How the data were processed

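RNA of the 4 libraries was sequenced as single reads from a stranded mRNA kit, and 24 h of culture is the only time point. The authors deposited CPM values (reads divided by library total and by a further library factor between 0.990 and 1.01). TPM values, also scaled for gene length, were deposited for the same 17013 genes. The submitters' processing notes name build GRCm39. Aligner, counter and annotation are not given in the sources used here. CPM values were whole multiples of a smallest step in 100% of cases (tolerance 0.01 reads), so reads were recovered, at 0.0244 to 0.0295 CPM per read. The confidence intervals given are limma's and rest on the spread between libraries. They are not intervals of counting error.

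Fat was compared with Con with limma 3.58.1 under R 4.3.3 (log2(CPM + 0.1), trended prior, two-sided). Benjamini-Hochberg adjustment ran over the 12470 genes that reached 0.5 CPM in 2 or more libraries. An exact permutation test of 2 against 2 libraries cannot go below 0.333. Also tried were no filter, a pseudocount of 1 CPM, a filter on a mean of 5 CPM, TPM, median ratio scaling, a replicate block, no trend, each library left out, an unadjusted p-value, and edgeR 4.0.16 and DESeq2 1.42.0 on recovered reads. Tests were checked on simulated counts. The members, lists and tests were chosen with earlier results of these data known. Named are all listed KLF genes, up to 4 called genes per list and direction with the largest change, and Arg1, Il1b, Tnf and Ccl5; other list genes were named after their values were seen. Python 3.11.15, pandas 2.3.3 and matplotlib 3.10.9 made tables and figures. GENCODE vM21 served for transcript lengths and shared stretches.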

Additional observations from a re-analysis of the deposited data

How the results depend on the processing

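The log2 difference of Klf10 stayed called except without limma's mean-variance trend (0.59, adjusted p = 0.0831). Klf7 was not called without the trend or without the filter (0.62 each) or by DESeq2 (0.63), and ranged from 0.50 to 0.74 with each library left out. Klf4 was not called without the trend or the filter (-0.46 each) or with TPM (-0.43), and ranged from -0.57 to -0.35 with libraries left out. Klf9 turned to -0.033 without Con replicate 1 (range -0.033 to 0.24), and Klf16 to -0.08 without Con replicate 2 and -0.20 without Fat replicate 2 (range -0.20 to 0.27). Of 153 log2 values under alternatives, 136 kept direction and side of the threshold, 14 lost a call and 3 changed direction. The lost calls were 7 of Klf7, 6 of Klf4 and 1 of Klf10. Klf2, Klf3, Klf6, Klf8 and Klf13, which were not called, kept all 14 values each. Members called higher numbered 1 by DESeq2, without the filter, at a mean of at least 5 CPM and with any library left out, and 0 without the trend. Members called lower numbered 0 with TPM, without the filter and without the trend, and between 0 and 1 with libraries left out.

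Over all genes, 498 were called higher and 624 lower. These became 19 and 12 without the trend and 1467 and 1541 when p-values of 0.05 were left unadjusted, and 366 were lower with TPM. With libraries left out they ranged from 216 to 519 and from 313 to 612. Without Fat replicate 2 the counts were 216 and 313, and without Con replicate 1 334 were lower. Among the 75 relatives, partners and targets tested, the NF-κB genes, a list chosen with earlier results known, gave 8 calls lower and 2 higher. The IL-4 genes gave 3 lower and 1 higher, and the Sp and cofactor genes 0. Against 3.99% and 5.0% of all genes, 8 of the 75 were called higher and 12 lower. Without the trend these were 1 and 2, at the unadjusted p-value 15 and 20, and with libraries left out 5 to 9 and 9 to 12, the 5 being without Con replicate 1 or Fat replicate 2. The cause of these shifts was not tested.

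The replicate block gave 1278 higher and 1242 lower genes, and 15 and 17 of the 75. The same 3 members were called, Klf10 (adjusted p = 1.56e-09), Klf7 (0.00272) and Klf4 (0.000602). Deviations of same-numbered libraries from their group means correlated at 0.20 (12470 genes) and at 0.339 over the 9760 genes with a mean of 5 CPM or more, but the labels name no shared animal or batch and there are 2 pairs, so the numbers were not taken as pairing. Precision is limited by 2 libraries per group and, for Klf7, by 113 to 211 reads per library.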
